A study of Mus musculus with 6 samples.

Results

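Glycolysis, the export and re-use of lactate, and the pentose phosphate pathway were followed here through 37 genes chosen by name. They were taken from the 37753 entries of the expression table that hold values, with earlier results of these data known. All 37 were found, each on the entry with the highest mean for its symbol. RNA was sequenced from primary mammary epithelial cells (MEC; 3 preparations) and from 3 JNK-deficient mammary tumor cell lines (MEKO), 1 library each. Each MEC preparation pooled the glands of 3 to 5 virgin C57BL/6J females that carried Wap-Cre, aged 10 to 12 weeks, and the cells were grown on collagen I. The MEKO lines, numbered 199, 233 and 336, were grown from tumors of parous mice that carried Wap-Cre with LoxP-flanked alleles of the JNK genes *Mapk8* and *Mapk9*; after 2 passages on collagen I they were kept on standard dishes. Wap-Cre, driven by the whey acidic protein promoter, is thus shared by both groups. The paper's immunoblots used MEKO cells from an adenocarcinoma, an adenosquamous carcinoma and a tumor with traits of both kinds. The sample titles do not give the tumor type of a line. Since Wap-Cre recombines in the secretory epithelium of pregnancy and lactation, and a line comes from a single tumor, genotype, parity, tumor origin, medium and time in culture change together between the groups and cannot be told apart.

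Glycolysis splits glucose into pyruvate through a preparatory phase that spends ATP and a payoff phase that returns it. Lactate dehydrogenase turns pyruvate into lactate, which leaves the cell through monocarboxylate transporters, while pyruvate dehydrogenase kinases hold pyruvate back from the mitochondria. The pentose phosphate pathway branches off at glucose phosphate and supplies NADPH and ribose. Nearly every step has several paralogous enzymes, known for tissue-restricted use, and growing cells in culture generally express the pathway at high levels.

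The largest fold difference among the 34 tested genes was in *Eno3*, the muscle-type enolase, whose mean was 17.7-fold higher in MEKO than in MEC. *Hk2*, the inducible hexokinase, was 2.03-fold higher and *Aldoc*, the brain-type aldolase, was 4.73-fold lower. Of the 34 genes that passed a filter of a mean of 1 FPKM (fragments sequenced, scaled by transcript length and library size), these 3 were called, with a limma adjusted p under 0.05 and a log2 fold change beyond 0.75 in either direction. That is 2 higher, where 2.64% of all 12461 tested entries were called higher, and 1 lower, where 7.26% were called lower. The other 31 tested genes, among them all of the most abundant glycolytic enzymes, did not pass. *Slc2a3*, *Fbp1* and *Fbp2* lay under the filter and were not tested.

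The sequence just before the transcription start of the 3 called genes and of *Slc16a1*, a lactate transporter described below, is shown so that the letters around the start of the called genes and of the transporter that was higher in the lines can be read. Each run is the 250 bases before a RefSeq start on GRCm38.p6, 5′ to 3′ on the gene's own strand. Capitals mark matches on either strand to the hypoxia response core (ACGTG or GCGTG) and to the antioxidant response element core (TGACNNNGC); no match to the AP1 motif TGANTCA was found in these 4 runs.
*Eno3*, chr11:70656926-70657175, plus strand: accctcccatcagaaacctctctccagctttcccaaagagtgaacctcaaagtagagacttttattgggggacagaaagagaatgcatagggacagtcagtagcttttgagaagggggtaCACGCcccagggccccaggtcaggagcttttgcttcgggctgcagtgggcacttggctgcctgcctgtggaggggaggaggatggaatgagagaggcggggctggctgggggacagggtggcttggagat
*Hk2*, chr6:82774455-82774704, minus strand: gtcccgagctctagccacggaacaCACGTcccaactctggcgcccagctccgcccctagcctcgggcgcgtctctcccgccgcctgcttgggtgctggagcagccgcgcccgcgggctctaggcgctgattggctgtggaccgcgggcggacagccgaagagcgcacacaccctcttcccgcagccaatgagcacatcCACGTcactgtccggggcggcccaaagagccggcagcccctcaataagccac
*Aldoc*, chr11:78322823-78323072, plus strand: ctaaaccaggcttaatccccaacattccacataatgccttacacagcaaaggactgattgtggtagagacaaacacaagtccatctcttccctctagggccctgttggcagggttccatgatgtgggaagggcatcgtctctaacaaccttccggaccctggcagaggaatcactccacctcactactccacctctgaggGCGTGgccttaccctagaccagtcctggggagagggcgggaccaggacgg
*Slc16a1*, chr3:104638414-104638663, plus strand: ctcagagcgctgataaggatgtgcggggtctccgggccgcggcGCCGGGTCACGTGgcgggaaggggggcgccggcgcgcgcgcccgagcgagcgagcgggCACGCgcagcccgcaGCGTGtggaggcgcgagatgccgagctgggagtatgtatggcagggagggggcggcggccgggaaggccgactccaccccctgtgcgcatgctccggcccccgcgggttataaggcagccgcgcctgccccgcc
The *Eno3* and *Aldoc* runs each hold 1 match to GCGTG and the *Hk2* run holds 2 to ACGTG. The *Slc16a1* run holds 2 matches to ACGTG, 2 to GCGTG and 1 to TGACNNNGC; the 2 matches to ACGTG are the opposite strands of 1 E-box (CACGTG), which the match to TGACNNNGC overlaps. *Aldoc* has a second RefSeq start, not shown. The run of *Slc16a3*, a lactate transporter that was lower in the lines, is not shown either. It holds 2 matches to ACGTG and none to GCGTG or TGACNNNGC. Neither transporter was called.

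Over windows from 250 bases before to 50 after each start, 36 of the 37 genes had 53 windows. ACGTG was found in 43.4% of these windows and in 19.6% of all 32851 windows of the RefSeq table, and GCGTG in 56.6% and 32.4%. CACGTG was found in 13.2% and 7.15%, TGACNNNGC in 13.2% and 12.4%, and TGANTCA in 3.77% and 7.81%. The median GC content was 60.7% in the windows of the 36 genes and 52.7% in all windows, and the part of base composition in these shares was not tested. A match is a stretch of letters and not a measured binding site.

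Read numbers are not known for these libraries, and ratios between the smallest values put the depth of the others between 0.92 and 1.30 times that of MEC 1. The targeted genes were lower in every line, with *Mapk8* at 5.93, 3.12 and 1.37 FPKM in lines 199, 233 and 336 against 19.2 to 25.1 FPKM in MEC. *Mapk9* was at 7.62, 3.15 and 3.07 FPKM against 21.5 to 24.4 FPKM. Epithelial markers differed as well, and the summed FPKM of 8 luminal markers was 5366 to 8913 in MEC and 791 to 1966 in MEKO. *Elf5* was at or near 0 in all 3 lines and *Pgr* was listed at 0. *Epcam* and *Cdh1* were lower but stayed at 128 to 252 and 71.1 to 104 FPKM in the lines. *Esr1* overlapped, with means of 2.65 FPKM in MEC and 2.68 FPKM in MEKO (limma adjusted p = 0.97). The sum of 5 basal markers was 1256 to 2237 FPKM in MEC and 9.90 to 1865 FPKM in MEKO, and the high value is line 199, the line that also had 600 FPKM of *Col1a1*. The basal markers disagreed in line 199, where *Krt5*, *Krt14* and *Trp63* were above every MEC library at 608, 521 and 15.6 FPKM. *Acta2* was below every MEC library there, at 719 FPKM against 736 to 1452 FPKM. *Myh11* was at most 0.0812 FPKM in the lines against 22.4 to 41.8 FPKM in MEC, and was called lower. The sum of 6 fibroblast markers was 95.7 to 179 FPKM in MEC and 1.82 to 1081 FPKM in MEKO. The high value is again line 199 and is nearly all collagen, with *Col1a2* at 408 FPKM and *Col3a1* at 71.5 FPKM beside *Col1a1*. Of the other 3 markers in line 199, *Pdgfra* was above MEC at 1.31 FPKM. *Dcn* and *Lum* were below MEC there, at 0.311 and 0.0264 FPKM against 3.29 to 6.62 and 0.507 to 1.28 FPKM. Sums over leukocyte, endothelial and adipocyte markers were 21.7 to 41.8, 1.64 to 15.2 and 1.48 to 11.8 FPKM in MEC. In MEKO they were 0.946 to 24.9, 0.170 to 0.473 and 0.0898 to 1.19 FPKM. *Lyz2* was at 16.5 to 32.9 FPKM in MEC and at most 0.0182 FPKM in the lines, *Cd68* was at 23.5 FPKM in line 336, and *Ptprc* was at most 0.40 FPKM in every library. The part of these cell states in the differences below was not tested. In bulk RNA, fewer cells of a type and less RNA per cell cannot be told apart.

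MEC 3 stood apart from the other MEC libraries in the abundant glycolytic genes, a fact that bears on each comparison below. It was the lowest of the 3 MEC libraries in 23 of the 34 tested genes (67.6%), against 39.3% of all tested entries. The median log2 ratio of MEC 3 to the mean of MEC 1 and MEC 2 was -0.35 over the 34 genes and 0.02 over all tested entries. *Pgk1* in MEC 3 was 44.2% of that mean, *Slc2a1* 46.0%, *Ldha* 48.5%, *Pkm* 51.9% and *Gapdh* 59.5%. Some paralogs went the other way, with *Aldoc* at 207% and *Pdk2* at 235%. MEC 3 also differed from MEC 1 and MEC 2 in some cell type markers. The endothelial *Pecam1* was at 0.784 FPKM against 4.88 and 6.30 FPKM, and the luminal *Krt19* at 356 against 804 and 1057 FPKM. *Lyz2* was higher in MEC 3, at 32.9 against 16.5 and 19.6 FPKM, and *Epcam* was similar, at 549 against 539 and 519 FPKM. The part of cell content in the MEC 3 values was not tested.

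**Figure D1:**
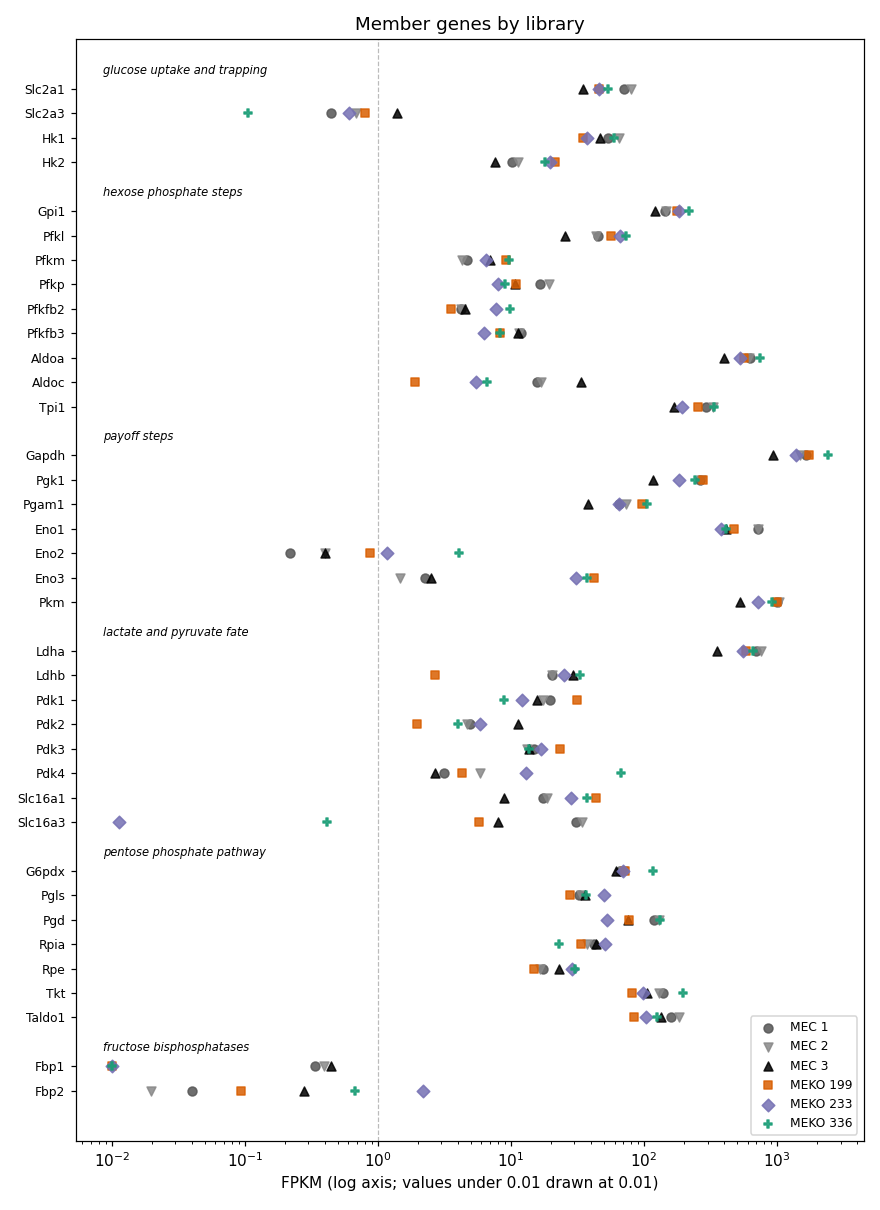
FPKM of the 37 genes in each library on a log axis, 1 point per library, grouped by step, with a dashed line at the filter of 1 FPKM. Grey and black points are MEC, coloured points MEKO; the groups stand far apart in *Eno3*, while the abundant genes such as *Gapdh* and *Pkm* are mixed and MEC 3 is the lowest point.

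Glucose enters the cell through facilitative transporters and is trapped by hexokinase. *Slc2a1*, which encodes the transporter GLUT1, was at 71.1, 79.8 and 34.7 FPKM in MEC 1, 2 and 3 and at 45.9, 45.6 and 54.0 FPKM in lines 199, 233 and 336. The groups overlapped, and all 3 lines lay within the MEC range. The log2 fold change was -0.26 with a 95% interval of -1.03 to 0.51 (limma adjusted p = 0.62). *Slc2a3*, for the transporter GLUT3, was at 1.39 FPKM or less in every library.

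*Hk1*, the broadly expressed hexokinase, was at 53.7, 64.9 and 47.0 FPKM in MEC and 34.6, 37.02 and 59.0 FPKM in lines 199, 233 and 336. Lines 199 and 233 lay below the MEC range and line 336 within it (log2 fold change -0.36, limma adjusted p = 0.37). *Hk2* (chromosome 6 of GRCm38, 82725025 to 82774454, minus strand) was at 10.2, 11.3 and 7.55 FPKM in MEC and at 21.3, 19.5 and 18.0 FPKM in the lines. Every line was higher than every MEC library, a pattern shown by 18.5% of all tested entries. The log2 fold change was 0.96 ± 0.19 (SE is the standard error here and below; limma adjusted p = 0.028). The call rested on all but line 199: the limma adjusted p was 0.112, 0.075 and 0.073 without MEC 1, 2 or 3, and 0.064 and 0.051 without line 233 or 336.

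*Hk2* thus made up a larger share of hexokinase mRNA in the lines. Of *Hk1* and *Hk2* together, it was 15.9%, 14.8% and 13.8% in MEC and 38.1%, 34.5% and 23.4% in lines 199, 233 and 336. The mean was 14.8% ± 1.03 in MEC and 32.0% ± 7.67 in MEKO (SD, n = 3), without overlap (two-sided exact permutation p = 0.1, which no 3 against 3 comparison can go below, and 0.188 adjusted over the 15 shares computed). No share or sum described here could pass 0.05 with this design.

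The hexose phosphate steps convert glucose phosphate to triose phosphates, with phosphofructokinase as the main point of control. Of the 9 genes, 1 was called lower and none higher by limma, while 3 were higher and 3 lower at an unadjusted p under 0.05. Over all 12461 tested entries, 12.4% were higher and 15.7% lower at an unadjusted p under 0.05, and each such count below is to be read against these shares. *Gpi1*, glucose phosphate isomerase, was at 143, 147 and 120 FPKM in MEC and 177, 183 and 218 FPKM in the lines, each line above every MEC library (log2 fold change 0.49, limma adjusted p = 0.0999).

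The liver-type phosphofructokinase gene *Pfkl* was at 45.3, 43.6 and 25.5 FPKM in MEC and 56.7, 66.5 and 73.8 FPKM in lines 199, 233 and 336. The groups did not overlap, but the log2 fold change of 0.80 did not pass the test (95% interval 0.20 to 1.41, limma adjusted p = 0.099). The platelet-type *Pfkp* was at 16.7, 19.4 and 10.7 FPKM in MEC and 10.9, 7.92 and 9.04 FPKM in the lines, and line 199 lay just above MEC 3. Its log2 fold change was -0.66 (95% interval -1.26 to -0.06, limma adjusted p = 0.148). The muscle-type *Pfkm* was at 4.26 to 6.93 FPKM in MEC and 6.51 to 9.69 FPKM in the lines.

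As a share of the 3 phosphofructokinase mRNAs, *Pfkp* was 25.0%, 28.8% and 24.8% in MEC and 14.2%, 9.79% and 9.78% in lines 199, 233 and 336. *Pfkl* was 59.1% to 68.0% in MEC and 74.0% to 82.2% in the lines. Neither share overlapped between the groups, including MEC 3, whose absolute levels of both genes were the lowest of MEC (exact permutation p = 0.1 and adjusted p = 0.188 for each). *Pfkm* shares overlapped, at 6.34% to 16.1% and 8.04% to 11.9%. Exons of *Pitrm1*, on the opposite strand and at a mean of 33.0 FPKM over all libraries, cover 5.58% of those of *Pfkp*. Whether the counting used strand is not given in the sources used here.

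The bifunctional enzymes *Pfkfb2* and *Pfkfb3* set the level of the fructose bisphosphate that activates phosphofructokinase. *Pfkfb3*, the isoform with the strongest kinase activity, was at 11.8, 11.4 and 11.3 FPKM in MEC and at 8.21, 6.31 and 8.31 FPKM in the lines. The spread within MEC was small and the groups did not overlap, yet the log2 fold change of -0.55 did not pass either threshold (limma adjusted p = 0.090). *Pfkfb2* was at 4.23, 4.18 and 4.55 FPKM in MEC, at 3.54 FPKM in line 199, and at 7.70 and 9.85 FPKM in lines 233 and 336. The *Pfkfb3* share of the pair was therefore 71.2% to 73.6% in MEC and 69.9% in line 199, but 45.02% and 45.8% in lines 233 and 336. *Pfkfb4*, outside the 37 genes, was at 1.64, 2.17 and 2.05 FPKM in MEC and at 3.18, 21.2 and 5.73 FPKM in the lines. Of *Pfkfb2*, *Pfkfb3* and *Pfkfb4* together, *Pfkfb4* was 9.28% to 12.2% in MEC and 21.3%, 60.2% and 24.0% in lines 199, 233 and 336. *Pfkfb1*, in neither share, was at 2.21 to 3.64 FPKM in MEC and 3.11 to 3.96 FPKM in the lines. *Pfkfb4* and *Pfkfb1* were named after their values were seen.

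*Aldoc* (chromosome 11, 78322968 to 78327781, plus strand) was at 15.6, 16.8 and 33.6 FPKM in MEC and at 1.91, 5.50 and 6.54 FPKM in lines 199, 233 and 336. All lines were lower than all MEC libraries, as in 18.7% of tested entries, and line 199 was the lowest. The log2 fold change was -2.05 ± 0.45 (SE; limma adjusted p = 0.039). The limma adjusted p was 0.067 without the expression filter, 0.102, 0.110 and 0.125 without MEC 1, 2 or 3, and 0.068 and 0.051 without line 233 or 336. *Aldoa*, the main aldolase of most cells, was at 625, 620 and 397 FPKM in MEC and 566, 525 and 740 FPKM in the lines, with overlap (limma adjusted p = 0.67). *Aldoc* was 2.44%, 2.64% and 7.80% of the aldolase pair in MEC and 0.336%, 1.04% and 0.876% in the lines. *Tpi1*, triose phosphate isomerase, had nearly equal means of 262 ± 84.5 FPKM in MEC and 262 ± 73.0 FPKM in MEKO.

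**Figure D2:**
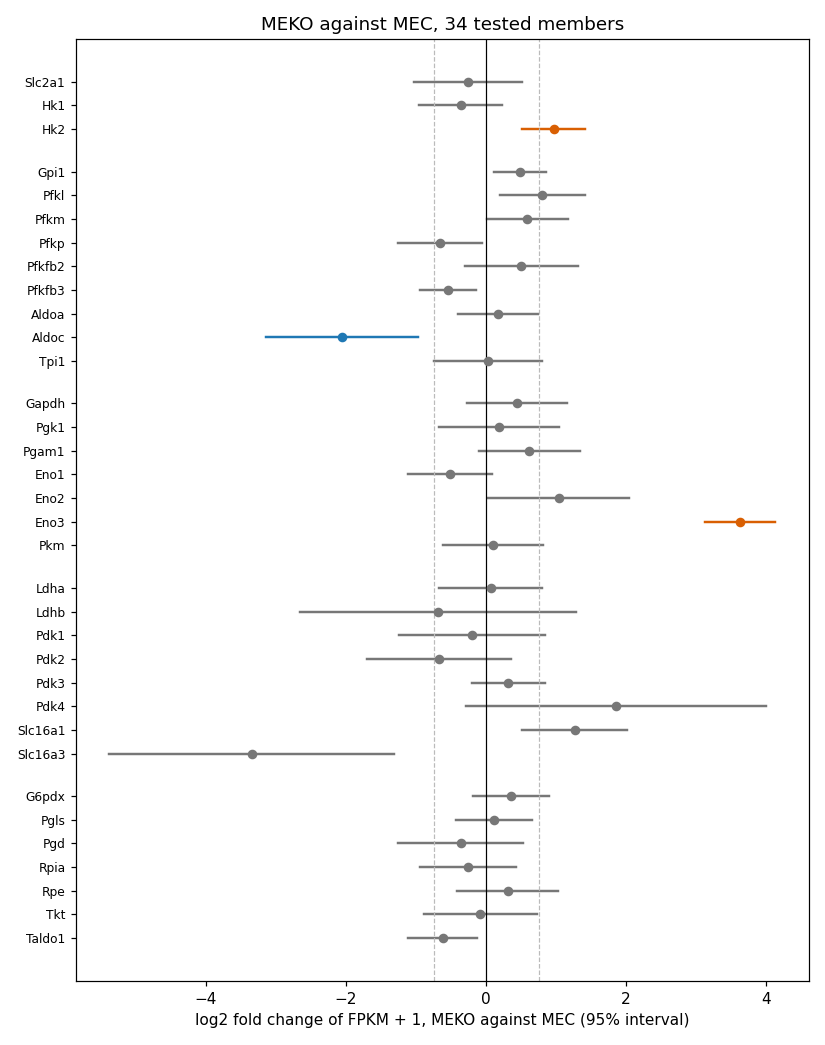
Log2 fold change of FPKM + 1 in MEKO against MEC for the 34 tested genes, with 95% intervals from limma and dashed lines at a log2 fold change of 0.75 in each direction. *Hk2* and *Eno3* (orange) were called higher and *Aldoc* (blue) lower. The grey intervals of *Gpi1*, *Pfkl*, *Pfkm*, *Pfkp*, *Pfkfb3*, *Eno2*, *Slc16a1*, *Slc16a3* and *Taldo1* exclude 0 but their adjusted p did not pass.

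The payoff steps run from glyceraldehyde phosphate to pyruvate and include the most abundant genes of the set. Of the 7 genes, 1 was called higher and none lower by limma, while 2 were higher and none lower at an unadjusted p under 0.05. The 2 were *Eno3* and *Eno2*, and *Eno2* passed the expression filter only through its values in MEKO. *Eno3* (chromosome 11, 70657202 to 70662513, plus strand, 13 exonic blocks) was at 2.27, 1.47 and 2.51 FPKM in MEC and at 42.3, 31.0 and 37.5 FPKM in lines 199, 233 and 336. The groups were far apart, and the 3 lines were close to each other. The log2 fold change was 3.63 ± 0.21 (SE; 95% interval 3.12 to 4.13, limma adjusted p = 0.000927), and *Eno3* was called in each of the 15 alternative fits, with a log2 fold change between 3.47 and 4.11.

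*Eno3* is best known from skeletal muscle. The muscle markers *Ckm* and *Myh4* were at 0.02 FPKM or less in every library, and *Tnnt3* was at 0.03 to 0.23 FPKM in MEC and 0.20 to 0.70 FPKM in the lines. No 50-base stretch of *Eno3* is shared with *Eno1* or *Eno2*, and no other GENCODE gene overlaps its exons.

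*Eno1*, the enolase of most cells, was at 723, 719 and 413 FPKM in MEC and at 471, 379 and 411 FPKM in the lines, so MEC 3 fell among the lines (log2 fold change -0.52, limma adjusted p = 0.24). *Eno2*, the neuronal enolase, was at 0.218, 0.399 and 0.397 FPKM in MEC and 0.864, 1.17 and 4.05 FPKM in the lines, with no overlap (log2 fold change 1.03, limma adjusted p = 0.17). *Eno3* made up 0.313%, 0.204% and 0.603% of the mRNA of the 3 enolases in MEC and 8.23%, 7.53% and 8.30% in lines 199, 233 and 336 (exact permutation p = 0.1, adjusted p = 0.188). *Eno1* therefore remained by far the most abundant enolase in every library.

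*Gapdh* was the most abundant gene of the set, at 1654, 1492 and 937 FPKM in MEC and 1734, 1377 and 2403 FPKM in lines 199, 233 and 336 (log2 fold change 0.44, limma adjusted p = 0.37). *Pkm*, pyruvate kinase, had means of 852 ± 282 FPKM in MEC and 878 ± 147 FPKM in MEKO. *Pgk1*, which makes the first ATP of the payoff phase, had means of 217 ± 85.7 FPKM and 234 ± 47.1 FPKM. *Pgam1*, phosphoglycerate mutase, was at 64.6, 72.6 and 38.1 FPKM in MEC and 96.9, 65.1 and 105 FPKM in the lines, with a log2 fold change of 0.62 (limma adjusted p = 0.23). The table also holds near-identical copies of these genes, of which the pseudogene *Pgam1-ps2* had the highest level, 10.5 ± 2.98 FPKM in MEC and 14.7 ± 4.27 FPKM in MEKO, and reads shared with *Pgam1* could be divided between them.

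Lactate and pyruvate fate covers 8 genes, none of them called by limma; 1 was higher and 1 lower at an unadjusted p under 0.05. These were the transporters *Slc16a1* and *Slc16a3*, which differed in opposite directions. *Slc16a1*, which encodes MCT1, was at 17.5, 18.7 and 8.88 FPKM in MEC and at 43.6, 28.4 and 37.3 FPKM in lines 199, 233 and 336, all above MEC. The log2 fold change was 1.26 ± 0.31 (SE; limma adjusted p = 0.053, and between 0.046 and 0.131 over 15 alternatives).

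*Slc16a3* (chromosome 11, 120948480 to 120960868, plus strand) encodes MCT4, the transporter known for lactate export from glycolytic cells. It was at 30.9, 34.1 and 8.01 FPKM in MEC and at 5.71, 0.0113 and 0.410 FPKM in lines 199, 233 and 336. Line 199 was thus near MEC 3, while lines 233 and 336 were close to 0. The log2 fold change was -3.35 with a 95% interval of -5.38 to -1.31 (limma adjusted p = 0.056). The limma adjusted p was between 0.0064 and 0.189 over 15 alternatives and passed in 2 of them, 0.012 without line 199 and 0.0064 with library weights. It was 0.189, 0.181 and 0.082 without MEC 1, 2 or 3, and 0.121 and 0.126 without line 233 or 336. Its log2 fold change ran from -4.89 with a pseudocount of 0.1 to -2.81 without line 233, and was -3.98 without MEC 3 and -4.18 without line 199.

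Of the 2 transporters together, *Slc16a3* was 63.8%, 64.5% and 47.4% in MEC and 11.6%, 0.040% and 1.09% in lines 199, 233 and 336. The mean difference was -54.3 percentage points, the largest of the 15 shares (exact permutation p = 0.1, adjusted p = 0.188). MEC 3, in which both transporters were low, still had a far higher share than line 199. *Bsg*, which encodes the basigin chaperone of both transporters, was at 338 to 466 FPKM in MEC and 296 to 704 FPKM in the lines (limma adjusted p = 0.60).

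*Ldha*, the lactate dehydrogenase subunit that predominates in glycolytic tissue, was at 699, 754 and 353 FPKM in MEC and 580, 551 and 663 FPKM in the lines, all within the MEC range. Its log2 fold change was 0.06 with a 95% interval of -0.67 to 0.80 (limma adjusted p = 0.91). *Ldhb*, the heart-type subunit, was at 20.3, 20.4 and 29.0 FPKM in MEC and at 2.71, 25.0 and 32.9 FPKM in lines 199, 233 and 336. Line 199 alone was low, and its *Ldhb* share of the 2 subunits was 0.464%, against 2.64% to 7.60% in the other libraries.

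The 4 pyruvate dehydrogenase kinases differed more among the lines than between the groups. *Pdk4*, the kinase induced by fasting and fatty acids, was at 3.11, 5.89 and 2.70 FPKM in MEC and at 4.28, 12.9 and 67.2 FPKM in lines 199, 233 and 336 (limma adjusted p = 0.23). *Pdk1* ran in the other order, with 31.1, 12.2 and 8.82 FPKM in the lines and 15.6 to 19.6 FPKM in MEC (limma adjusted p = 0.79). In line 336 *Pdk4* made up 71.7% of the kinase mRNAs and *Pdk1* 9.41%, while in line 199 these shares were 7.04% and 51.2%. *Pdk2* was at 1.96, 5.82 and 3.97 FPKM in the lines and 4.64 to 11.3 FPKM in MEC. *Pdk3* was at 23.4, 16.9 and 13.7 FPKM and 13.3 to 14.9 FPKM.

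**Figure D3:**
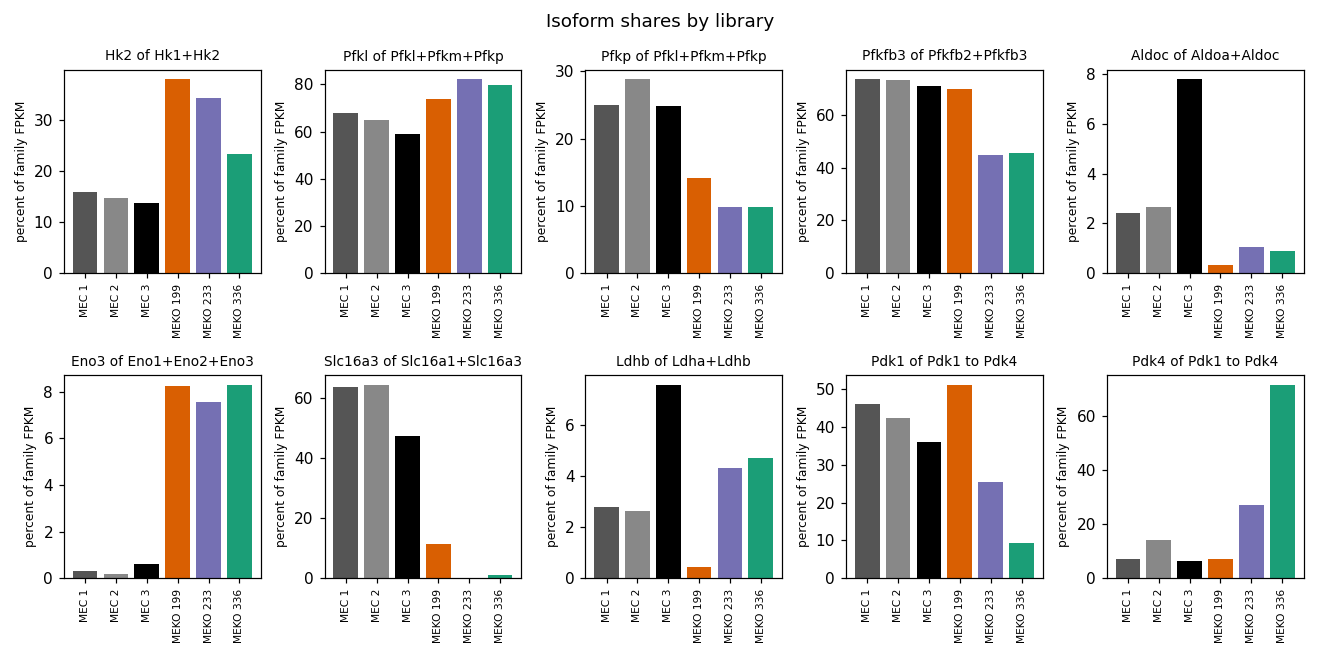
Share of a paralog in the summed FPKM of its family, in percent, for each of the 6 libraries, 1 bar per library and no error bars. The MEC and MEKO bars do not overlap in height for *Hk2*, *Pfkl*, *Pfkp*, *Pfkfb3*, *Aldoc*, *Eno3* and *Slc16a3*, whereas *Ldhb*, *Pdk1* and *Pdk4* vary between lines.

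Of the 15 shares, 8 did not overlap between the groups, those of *Hk2*, *Pfkl*, *Pfkp*, *Pfkfb3*, *Aldoc*, *Eno2*, *Eno3* and *Slc16a3*. Among single entries, 18.5% of all those tested lay above MEC in every line and 18.7% lay below. No such rate was computed for the shares of other gene families, so the count of 8 has no background of its own. The *Eno2* share had means of 0.060% in MEC and 0.450% in MEKO. *Eno2* passed the expression filter only through the lines, so its place among the 8 is no support. Shares of 1 family are not independent, since they sum to 100%.

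None of the 7 genes of the pentose phosphate pathway was called by limma, and at an unadjusted p under 0.05 only *Taldo1* was lower and none was higher. *Taldo1*, transaldolase, was at 160, 185 and 134 FPKM in MEC and at 83.4, 104 and 125 FPKM in lines 199, 233 and 336, each below every MEC library (log2 fold change -0.62, limma adjusted p = 0.11). *G6pdx*, the entry enzyme that makes NADPH, was at 66.3, 69.4 and 61.2 FPKM in MEC and 72.4, 70.1 and 118 FPKM in the lines. All lines were above MEC, but lines 199 and 233 by little (log2 fold change 0.36, limma adjusted p = 0.34). On the opposite strand, exons of *Ikbkg* cover 13.6% of those of *G6pdx*, and whether the counting used strand is not given in the sources used here. Exons of *Kansl1l* likewise cover 17.9% of those of *Rpe*, described below.

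*Pgd*, the other NADPH-forming dehydrogenase, was at 119, 129 and 75.1 FPKM in MEC and 77.2, 53.0 and 131 FPKM in the lines (limma adjusted p = 0.55). *Tkt*, transketolase, was at 105 to 138 FPKM in MEC and 81.4, 98.7 and 196 FPKM in the lines. Line 336 had the highest value of all libraries for *G6pdx*, *Pgd* and *Tkt*. *Rpia*, which isomerises ribose phosphate, was at 37.1 to 43.3 FPKM in MEC and 33.3, 50.5 and 23.0 FPKM in the lines, and *Rpe*, the epimerase, at 16.6 to 22.8 FPKM and 14.8, 28.5 and 30.3 FPKM. *Pgls*, the lactonase, is joined with *Fam129c* on 1 entry, at 32.6 to 35.8 FPKM in MEC and 27.6 to 49.6 FPKM in the lines, so its own level cannot be told apart from that of its neighbour.

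The fructose bisphosphatases, which run glycolysis backwards at the phosphofructokinase step, were near 0. *Fbp1* was at 0.334, 0.392 and 0.445 FPKM in MEC and was listed at 0 in all 3 lines. *Fbp2* was at 0.279 FPKM or less in MEC and at 0.0932, 2.17 and 0.677 FPKM in lines 199, 233 and 336.

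Summed, the 37 genes held 1.00%, 1.13% and 0.658% of the summed FPKM of MEC 1, 2 and 3 and 1.06%, 0.866% and 1.28% of that of lines 199, 233 and 336. The means were 0.930% ± 0.244 in MEC and 1.07% ± 0.207 in MEKO (SD, n = 3), a difference smaller than the spread (exact permutation test, two-sided, p = 0.5, adjusted p = 0.9 over 7 sums). The payoff steps alone held 0.581%, 0.632% and 0.350% in MEC and 0.650%, 0.480% and 0.736% in the lines. For each of the 6 step groups the groups overlapped, with exact permutation p values between 0.4 and 0.9. The median log2 fold change over the 34 tested genes was 0.10, beside 0.01 over all tested entries; it was -0.20 without MEC 3 and -0.14 with library weights.

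In 7 of the 34 tested genes every line was above every MEC library, and in 4 every line was below, where 18.5% and 18.7% of all tested entries did so. The 7 were *Hk2*, *Gpi1*, *Pfkl*, *Eno2*, *Eno3*, *Slc16a1* and *G6pdx*, and the 4 were *Pfkfb3*, *Aldoc*, *Slc16a3* and *Taldo1*. *Eno2* passed the filter only through the lines, with means of 0.338 FPKM in MEC and 2.03 FPKM in MEKO, so its place among the 7 is no support. Without line 336 it fell under the filter. Without MEC 3 the counts were 8 and 8, beside 23.4% and 21.3% of all entries, and without line 199 they were 11 and 7, beside 26.0% and 27.0%. The counts were not tested against these shares.

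Each line was then set against the range of the 3 MEC libraries. Line 199 lay above it in 13 of the 34 genes and below it in 12, where 40.2% and 39.1% of all tested entries did so. Line 233 lay above in 13 and below in 10 (all entries 37.4% and 37.9%). Line 336 lay above in 19 and below in 9 (all entries 39.2% and 37.4%), and its median log2 ratio to the MEC mean was 0.32, against -0.05 in line 199 and -0.02 in line 233. Line 336 was the highest of the 6 libraries in *Gapdh*, *Aldoa*, *Tpi1*, *Pfkl*, *Gpi1* and *Pgam1* as well as in the pentose phosphate genes named above. With 1 library per line, these are descriptions with no test.

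**Figure D4:**
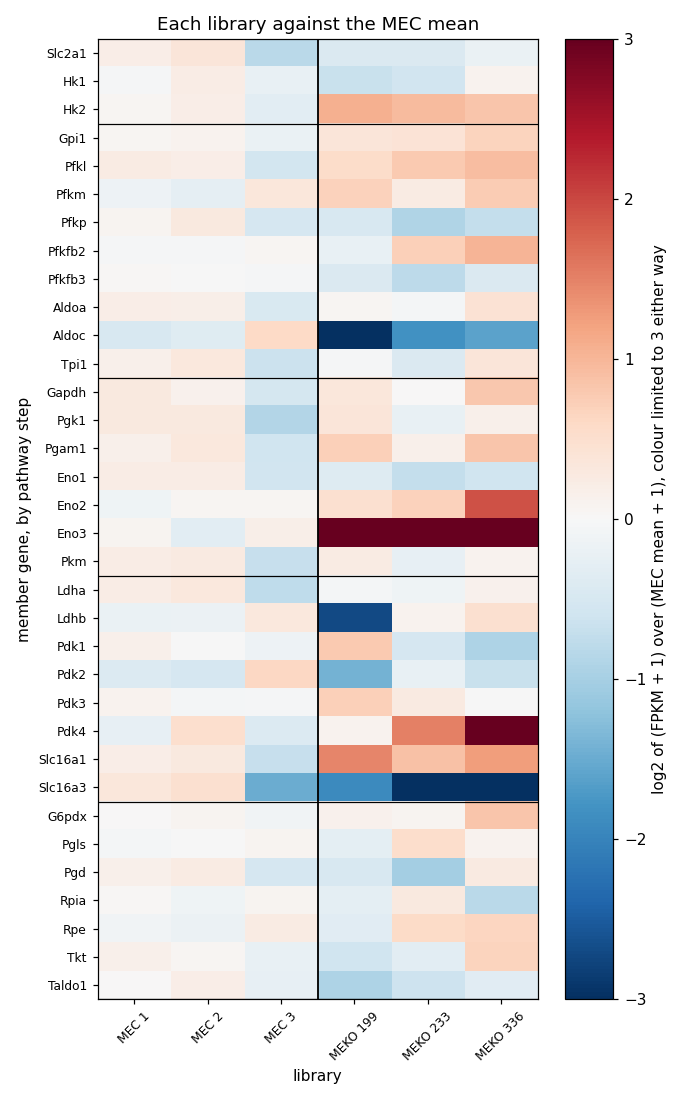
Log2 of (FPKM + 1) over (MEC mean + 1) for the 34 tested genes in each of the 6 libraries, in order of pathway step, red above and blue below the MEC mean. *Eno3*, *Hk2* and *Slc16a1* are red and *Aldoc*, *Slc16a3*, *Pfkfb3* and *Taldo1* blue in all 3 lines, MEC 3 is blue in most abundant glycolytic genes, and *Ldhb* and *Pdk4* differ between lines.

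Genes around the pathway were read from the same fit. Of 16 tested genes of sugar entry and glycolysis outside the 37, 2 were called higher and 3 lower by limma. The insulin-responsive glucose transporter gene *Slc2a4* was at 5.54 ± 1.30 FPKM in MEC and 0.861 ± 0.895 FPKM in MEKO (log2 fold change -1.90, limma adjusted p = 0.029). *Galm*, an enzyme of galactose metabolism, was lower too, with a log2 fold change of -1.57 (limma adjusted p = 0.026). Its means were 3.11 FPKM in MEC and 0.430 FPKM in MEKO. *Slc2a4* and *Galm* passed the expression filter only through MEC, where they are high, so their lower calls are no support. *Tigar*, a phosphatase known to lower fructose bisphosphate and favor the pentose phosphate pathway, was at 4.48, 5.51 and 3.85 FPKM in MEC and 9.33, 7.97 and 8.88 FPKM in the lines (log2 fold change 0.80, limma adjusted p = 0.042). The other higher call, named after its values were seen, was *Pgam5*, a mitochondrial protein phosphatase of the phosphoglycerate mutase family (log2 fold change 0.78).

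Among 8 tested genes of lactate and monocarboxylate handling outside the 37, 2 were called lower and none higher by limma, and 4 were lower and none higher at an unadjusted p under 0.05. *Ldhd*, the mitochondrial dehydrogenase of D-lactate, was at 11.8, 18.1 and 11.9 FPKM in MEC and 1.08, 2.08 and 0.770 FPKM in the lines (log2 fold change -2.71, limma adjusted p = 0.0042). Of 11 genes of pyruvate dehydrogenase and pyruvate transport, *Pdhx* was called higher (log2 fold change 0.75, barely past the threshold) and none lower, while 5 were higher and 1 lower at an unadjusted p under 0.05.

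Of 9 other pentose phosphate and ribose genes, *Shpk*, sedoheptulose kinase, was called lower (log2 fold change -1.71) and none higher by limma, with 1 gene in each direction at an unadjusted p under 0.05. Of 15 glycogen genes, *Pygl*, a glycogen phosphorylase, was called lower (log2 fold change -1.91) and none higher, again with 1 gene in each direction at an unadjusted p under 0.05. The *Pygl* means were 2.87 FPKM in MEC and 0.0128 FPKM in MEKO. It passed the expression filter only through MEC, so its call is no support. None of 3 gluconeogenesis genes was called by limma, and 1 was lower at an unadjusted p under 0.05.

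Of 14 tested regulators, 2 were called higher and 2 lower by limma. *Myc*, a transcription factor known to induce glycolytic genes, was at 73.8, 78.4 and 45.3 FPKM in MEC and 138, 147 and 112 FPKM in the lines (log2 fold change 1.03, limma adjusted p = 0.049). *Esrra*, a nuclear receptor of mitochondrial genes, was the other higher call (log2 fold change 0.97). The AP1 genes *Jun* and *Fos* were lower, with *Jun* at 57.4 ± 3.79 FPKM in MEC and 9.18 ± 1.18 FPKM in MEKO (log2 fold change -2.53, limma adjusted p = 0.000927). *Hif1a* had means of 39.4 ± 2.61 FPKM and 35.0 ± 6.95 FPKM (limma adjusted p = 0.54), and *Txnip*, an inhibitor of glucose uptake, 44.5 ± 13.2 FPKM and 55.5 ± 19.4 FPKM (limma adjusted p = 0.55).

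Hypoxia targets outside the 37 genes numbered 18, of which 3 were called lower and none higher by limma, with 7 lower and none higher at an unadjusted p under 0.05 and a median log2 fold change of -0.44. The 3 were *Car9*, a carbonic anhydrase, *Bhlhe40* and *Ddit4*, with log2 fold changes of -2.46, -1.84 and -1.69. Of 13 targets of NRF2, *Gsr*, glutathione reductase, and *Idh1*, an NADPH-forming isocitrate dehydrogenase, were called lower and none higher, with log2 fold changes of -1.28 and -1.04. At an unadjusted p under 0.05, 2 NRF2 targets were lower and 1 higher. The called counts stand beside 2.64% of all entries called higher and 7.26% called lower, and the counts at an unadjusted p beside 12.4% higher and 15.7% lower. No list was tested as a set. The lower counts of these lists include genes, such as *Slc2a4*, *Galm* and *Pygl*, that passed the filter only through MEC.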

How the data were processed

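RNA of 3 MEC preparations and 3 MEKO lines was sequenced with paired-end reads of 150 bp. The authors trimmed the reads, aligned them to mm10 (GRCm38) with Bowtie2 and TopHat2 2.0.14, and deposited FPKM values from Cufflinks 2.2.1, normalized for transcript length and library size. Versions are from the submitters' processing notes. FPKM hold no read numbers, so depth is unknown, no counting interval was computed, and low values are the least precise. FPKM are measured on a relative scale, so a few abundant genes can move all others. The kit's strandedness and the annotation used are not given in the sources used here.

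The 37 genes and all gene lists were chosen with earlier results of these data known. Groups were taken from sample titles. Entries with a mean of at least 1 FPKM (12461) were fitted in R 4.3.3 with limma 3.58.1 on log2(FPKM + 1), MEKO against MEC, with an intensity trend in the empirical Bayes step, and adjusted by the Benjamini-Hochberg method over all of them; fold changes on this scale understate those of low genes. The thresholds were an adjusted p of 0.05 and a log2 fold change of 0.75. The fit was tested on simulated data. Paralog shares and step sums were computed within each library and compared by two-sided exact permutation tests. The libraries are separate preparations or lines.

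All 37 genes were described, with values in every library for called genes and for those with the largest changes of each step. Of each other list, at most 3 called genes were named, by size of change, and also *Hif1a*, *Myc*, *Txnip*, *Tigar*, *Bsg* and *Jun*. Some genes of these lists are counted but not reported here by name. *Tigar* was matched by its older symbol. Positions are from GENCODE M21 and promoters from RefSeq, both on GRCm38; 50-base stretches of GENCODE transcripts were compared to find gene copies. Alternatives were another pseudocount (0.1), filter (none, or a mean of 5 FPKM), scaling (TPM, upper quartile, quantile), no trend, library weights, summed copies, and each library left out.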

Additional observations from a re-analysis of the deposited data

How the results depend on the processing

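No paired analysis was possible because the groups share no replicate numbers. *Eno3* was called in every alternative fit. The number of genes called higher was 1 to 3, and of genes called lower 0 to 2, over fits that left out 1 library: without MEC 1, 2 or 3 or line 233 or 336 only *Eno3* was called, with 5 to 8 genes higher and 2 to 7 lower at an unadjusted p under 0.05 in limma. Calls over all tested entries fell too in these 5 fits, from 329 higher and 905 lower to 48 to 248 higher and 211 to 781 lower. Without line 199 *Hk2*, *Pfkfb2*, *Eno3*, *Aldoc* and *Slc16a3* were called, and 568 entries higher and 1398 lower over all. With no expression filter 0 genes were called lower by limma (6 at an unadjusted p under 0.05), and with library weights 3. The median log2 fold change was -0.20 to 0.24 when a library was left out, -0.14 with library weights, against 0.10 as reported. The cause of these changes was not tested. The counts of genes whose groups do not overlap, recomputed after the data were seen, were 7 to 11 above and 4 to 8 below with 1 library left out.

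With library weights the log2 fold changes of *Aldoa* (-0.042), *Tpi1* (-0.27), *Pgk1* (-0.24), *Pkm* (-0.25) and *Ldha* (-0.22) turned negative, as did *Tpi1* with upper-quartile scaling (-0.027); none of these was called. With 1 library left out, values that changed sign ran from -0.044 to 0.28 for *Aldoa*, -0.27 to 0.22 for *Tpi1*, -0.20 to 0.39 for *Pgk1*, -0.22 to 0.26 for *Pkm*, -0.28 to 0.26 for *Ldha*, -1.28 to 0.31 for *Ldhb*, -0.70 to 0.16 for *Pdk1*, -0.093 to 0.32 for *Pgls*, -0.54 to 0.0095 for *Rpia* and -0.45 to 0.17 for *Tkt*. Shares that changed sign, in percentage points, ran from -1.28 to 0.334 for *Slc2a3*, -1.43 to 3.44 for *Pfkm*, -2.03 to 0.450 for *Ldhb* and -7.91 to 4.07 for *Pdk3*. Sums that did so, in percent of the library, ran from -0.00453 to 0.00151 for glucose uptake, -0.0115 to 0.0272 for lactate and pyruvate fate, -0.0182 to 0.00590 for the pentose phosphate pathway and -1.64e-05 to 0.000165 for the fructose bisphosphatases. Quantile normalization and TPM moved the median of all tested entries to 0.10 and 0.08.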
